A study of Mus musculus with 15 samples.

Results

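The lysosome and autophagy genes described here are a list chosen with earlier results of these data known. The 38 genes were matched by symbol with a rule that uses no measured value. They were found as 38 of the 56980 gene IDs in the deposited count table, with 1 ID each, and all 38 had enough reads to be tested among 14627 genes. They comprise 4 lysosomal membrane proteins, 5 proteases, 9 glycan and lipid hydrolases with their helpers, 4 proton pump subunits, 2 transcription factors, 4 autophagy initiation genes, 4 conjugation genes, the 5 genes of the Atg8 family and 1 cargo receptor. RNA came from livers of wild-type male C57BL/6J mice that were put on their diets at 15 weeks of age and kept on them for 9 months. The 3 groups ate a ketogenic diet (89.9% fat, 5 libraries), a high-fat diet (60% fat, 5 libraries) or a control diet (10% fat, 4 libraries used). A further control library, replicate 1, was dropped by the submitters as contaminated, so the control libraries used are replicates 2 to 5. The labels also tag every group with the letters ALF, which they do not explain.

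Lysosomes are acidic organelles in which hydrolases break down proteins, glycans and lipids that arrive by endocytosis or by autophagy. In autophagy a kinase complex starts a membrane sac, a conjugation system attaches Atg8 proteins to it, and the closed vesicle then fuses with a lysosome, which a proton pump keeps acidic. The transcription factors Tfeb and Tfe3 are known to switch on many lysosomal and autophagy genes when nutrients are scarce, and in liver autophagy also delivers stored lipid to lysosomal acid lipase.

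Levels are CPM (read counts relative to the library's total), adjusted by TMM, a factor per library that offsets differences in RNA composition, and mean ± SD is over n = 5 ketogenic, n = 5 high-fat or n = 4 control libraries. Per-library values run in the order of the replicate numbers. Library totals ran from 16329425 to 25349148 counts. The label of the tissue held: all 8 hepatocyte markers were detected in all 3 diets, and their summed level ran from 61783 to 110910 CPM in ketogenic, 81036 to 114250 CPM in high-fat and 122700 to 155700 CPM in control livers. Ketogenic replicate 5 and high-fat replicate 1 stood apart on the first principal component, at 62.2 where the other ketogenic libraries ran from -13.4 to 32.7, and at -15.7 where the other high-fat libraries ran from 17.6 to 34.6. Results that rest on these 2 libraries are also given without them. In whole liver, a lower share of a cell type and less of a transcript in each cell cannot be told apart. The labels do not say that each library is a separate mouse, so p-values describe the spread between these samples.

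Hexa, Psap, Asah1, Atg7, Atg12 and Gabarapl1 were higher and Gm2a was lower in livers of both fat-rich diets than in control livers, and most of the 38 genes passed in neither comparison. Against control livers, ketogenic livers had 6 members higher and 2 lower at an adjusted p below 0.05 (edgeR's quasi-likelihood test, Benjamini-Hochberg over all 14627 genes), that is 21.1%, where 12.1% of all genes tested passed (7.47% higher, 4.60% lower). High-fat livers had 9 members higher and 1 lower, 26.3% of the list, where 12.0% of all genes passed (6.95% higher, 5.01% lower). The median log2 fold change of the members was 0.09 in ketogenic against control livers, beside 0.03 over all genes, and 0.16 in high-fat against control livers, beside 0.01. At an unadjusted p below 0.05 there were 12 members (31.6%) in ketogenic and 18 (47.4%) in high-fat against control livers, where 28.0% of all genes in ketogenic and 27.4% in high-fat livers were below it, so that the ketogenic share was near that of all genes. DESeq2 called 11 members (28.9%) in each, and 14.6% of all genes it tested in ketogenic and 15.2% in high-fat livers. Both comparisons use the same 4 control libraries. Every library of the fat-rich diet lay outside the control range for 8 members on the ketogenic diet, where 12.5% of all genes did so, and for 15 members on the high-fat diet, where 16.2% of all genes did. Without ketogenic replicate 5 the ketogenic counts were 6 higher and 1 lower, where 7.24% of all genes were higher and 5.02% lower, and without high-fat replicate 1 the high-fat counts were 9 higher and 1 lower, where 8.14% of all genes were higher and 6.57% lower.

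The count of higher members depended on the scaling. With library totals in place of TMM, which moved the median of all genes up by 0.18 (log2) in ketogenic and by 0.13 in high-fat against control livers, 12 members were higher and 1 lower in ketogenic livers, and 13 were higher and 1 lower in high-fat livers. Over all genes that scaling gave 1826 higher and 368 lower in ketogenic and 1302 higher and 420 lower in high-fat livers, against 1093 and 673 in ketogenic and 1016 and 733 in high-fat livers with TMM. As shares of all genes the library totals gave 12.5% higher and 2.52% lower in ketogenic, and 8.90% higher and 2.87% lower in high-fat livers.

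**Figure D1:**
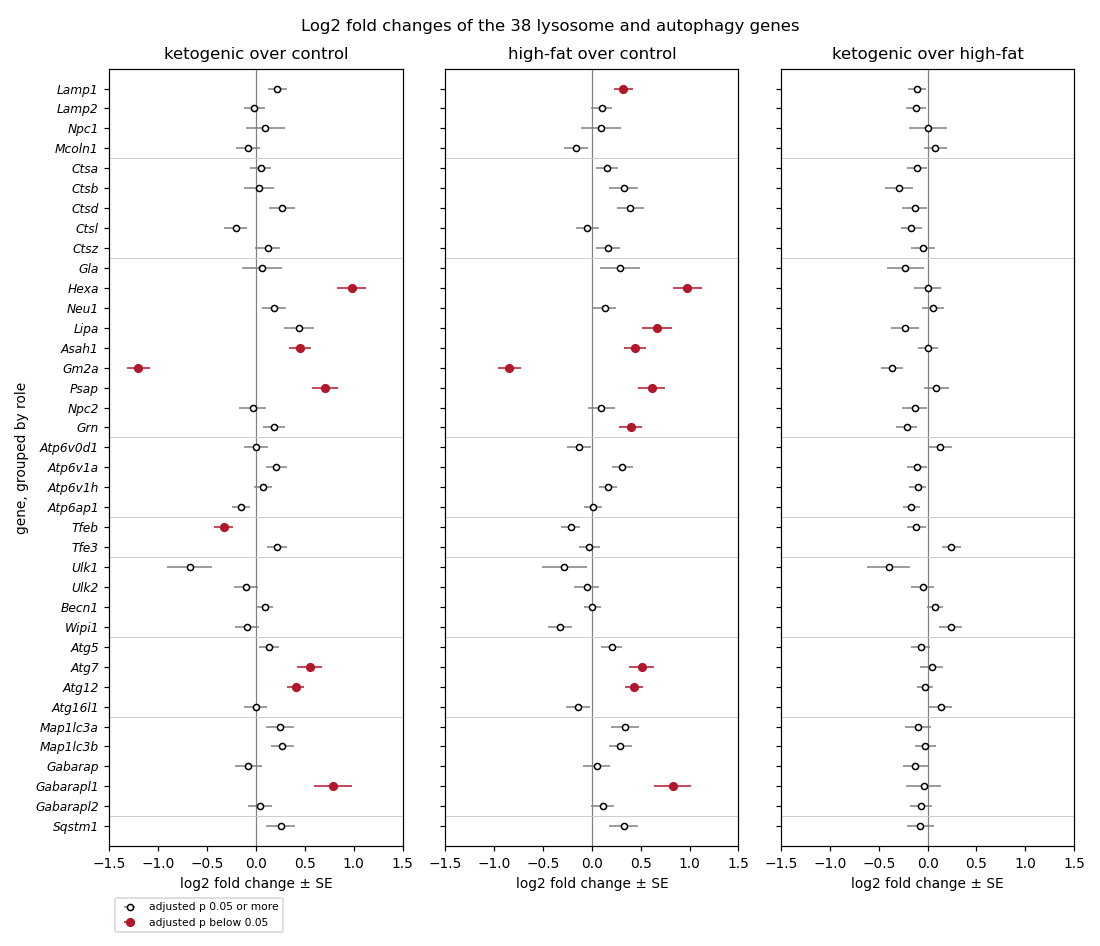
Log2 fold change ± SE of each of the 38 genes, grouped by role from lysosomal membrane proteins at the top to the cargo receptor Sqstm1 at the bottom, in ketogenic over control, high-fat over control and ketogenic over high-fat livers. Filled red points passed an adjusted p of 0.05: 8 in ketogenic over control, 10 in high-fat over control and 0 in ketogenic over high-fat, with Gm2a the lowest point in both panels against control.

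The clearest contrast was between Hexa and Gm2a, which act in the same step of ganglioside breakdown. Hexa encodes the alpha subunit of beta-hexosaminidase, which cleaves the ganglioside GM2, and Gm2a encodes the GM2 activator, which lifts that lipid out of the membrane for the enzyme. Hexa had 92.6, 92.6, 83.7, 76.4 and 93.5 CPM in ketogenic livers, 62.8, 78.5, 93.4, 93.2 and 110.3 CPM in high-fat livers and 51.02, 44.03, 35.9 and 47.2 CPM in control livers. Every library of either fat-rich diet was above every control library. Hexa therefore averaged 87.8 ± 7.51 CPM in ketogenic, 87.7 ± 17.9 CPM in high-fat and 44.5 ± 6.45 CPM in control livers, with log2 fold changes against control of 0.98 ± 0.15 (SE, adjusted p = 0.000505) in ketogenic and 0.98 ± 0.15 (SE, adjusted p = 0.000755) in high-fat livers. Gm2a had 58.4, 59.1, 61.5, 60.2 and 79.01 CPM in ketogenic livers, 84.2, 76.8, 77.7, 90.1 and 80.3 CPM in high-fat livers and 129, 146, 137 and 175 CPM in control livers. Here the order was the other way round, with all control libraries above all libraries of both fat-rich diets. Gm2a averaged 63.6 ± 8.67 CPM in ketogenic, 81.8 ± 5.42 CPM in high-fat and 147 ± 20.3 CPM in control livers, and its log2 fold change against control was -1.20 ± 0.12 (SE, adjusted p = 1.79e-05) in ketogenic and -0.84 ± 0.12 (SE, adjusted p = 0.000383) in high-fat livers. Both genes passed in each of the 18 alternative analyses of either comparison.

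The upstream sequences of these 2 genes are printed because the genes moved in opposite directions, and that of Lamp1 because it carries the most copies, among the members, of CACGTG, the core of the motif bound by Tfeb and Tfe3. Each is the 250 bases before the gene's start in RefSeq on build GRCm38.p6, an earlier build than the one used for the counts, with every CACGTG in capitals.
Hexa, chr9:59539290-59539539, strand +: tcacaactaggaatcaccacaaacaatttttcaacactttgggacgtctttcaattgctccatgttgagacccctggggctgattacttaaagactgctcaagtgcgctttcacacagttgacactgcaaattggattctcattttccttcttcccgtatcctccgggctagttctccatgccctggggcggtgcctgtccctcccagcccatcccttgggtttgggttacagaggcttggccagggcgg
Gm2a, chr11:55097735-55097984, strand +: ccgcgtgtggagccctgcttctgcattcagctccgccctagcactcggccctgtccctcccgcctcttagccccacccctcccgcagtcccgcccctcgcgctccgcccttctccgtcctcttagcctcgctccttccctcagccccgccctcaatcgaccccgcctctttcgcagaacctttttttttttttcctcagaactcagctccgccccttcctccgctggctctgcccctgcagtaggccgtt
Lamp1, chr8:13158911-13159160, strand +: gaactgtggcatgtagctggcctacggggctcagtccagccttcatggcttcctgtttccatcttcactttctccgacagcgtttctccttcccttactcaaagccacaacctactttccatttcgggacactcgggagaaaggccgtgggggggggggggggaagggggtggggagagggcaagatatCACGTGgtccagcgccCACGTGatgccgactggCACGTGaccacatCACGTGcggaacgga
The Hexa and Gm2a windows hold no CACGTG, and the Lamp1 window holds 4, which start 61, 45, 28 and 15 bases before the gene's start. Of the 30 members with an entry in the promoter table, 9 (30%) hold CACGTG in this window, against 1854 of 27025 genes (6.86%). The motif reads the same on both strands. The longer TCACGTGA, which contains it, is in 5 members (16.7%) and in 245 genes of the table (0.907%). CACGTG was found in 2 of the 9 members with an entry that passed the test in either fat-rich diet against control (Lamp1 and Atg7) and in 7 of the 21 that did not. A match describes these letters and not binding.

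Psap and Asah1, which also act on sphingolipids, were higher in both fat-rich diets. Psap encodes prosaposin, the precursor of the saposins that help lysosomal enzymes reach sphingolipids. Psap had 796, 699.6, 716, 616 and 945 CPM in ketogenic livers, 575, 713, 708, 739.6 and 807 CPM in high-fat livers and 444, 449.8, 481 and 479 CPM in control livers. All libraries of the fat-rich diets lay above all control libraries, with ketogenic replicate 5 the highest. For Psap the log2 fold change was 0.70 ± 0.13 (SE, adjusted p = 0.00308) in ketogenic and 0.61 ± 0.13 (SE, adjusted p = 0.00838) in high-fat against control livers, and 0.59 in ketogenic livers without replicate 5. Asah1 encodes acid ceramidase, which splits ceramide into sphingosine and a fatty acid. Asah1 had 40.5, 42.99, 38.2, 32.2 and 46.4 CPM in ketogenic livers, 38.5, 42.3, 43.7, 37.9 and 37.5 CPM in high-fat livers and 26.6, 32.9, 27.1 and 30.8 CPM in control livers. Ketogenic replicate 4 fell just under the highest control library, and the high-fat libraries did not overlap the control libraries. On the log2 scale Asah1 differed by 0.45 ± 0.11 (SE, adjusted p = 0.0161) in ketogenic and 0.44 ± 0.11 (SE, adjusted p = 0.018) in high-fat against control livers. Without control replicate 4 the adjusted p of Asah1 was 0.0634 in ketogenic and 0.0688 in high-fat livers.

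Lipa and Grn passed against control in high-fat livers and did not pass in ketogenic livers. The difference between ketogenic and high-fat livers itself did not pass in either gene, with log2 fold changes of -0.23 ± 0.14 (SE, adjusted p = 0.705) for Lipa and -0.21 ± 0.11 (SE, adjusted p = 0.609) for Grn. Lipa encodes lysosomal acid lipase, which hydrolyses cholesteryl esters and triglycerides. Lipa had 274, 262, 238, 246 and 353 CPM in ketogenic livers, 233, 370.1, 342, 324 and 344 CPM in high-fat livers and 198, 167, 218 and 229 CPM in control livers. Every ketogenic and every high-fat library was above the control range, but high-fat replicate 1 and 4 of the ketogenic libraries were well below the other high-fat libraries. Lipa had a log2 fold change of 0.44 ± 0.15 (SE, adjusted p = 0.0767) in ketogenic and 0.67 ± 0.15 (SE, adjusted p = 0.0113) in high-fat against control livers. In ketogenic livers it passed with DESeq2 (adjusted p = 0.049) and with library totals (adjusted p = 0.0364). Grn encodes progranulin, which is processed in lysosomes into granulins. Grn had 240.04, 239, 246, 240.2 and 268 CPM in ketogenic livers, 249.7, 292, 308, 245 and 334 CPM in high-fat livers and 201, 195, 245 and 227 CPM in control livers. The high-fat libraries lay just above the highest control library and spread widely. For Grn the log2 fold change was 0.18 ± 0.12 (SE, adjusted p = 0.316) in ketogenic and 0.40 ± 0.12 (SE, adjusted p = 0.0361) in high-fat against control livers, and the high-fat call was lost in 9 of 18 alternatives, among them those without control replicates 2, 3 or 5 or without high-fat replicates 2, 3 or 5 (adjusted p from 0.0685 to 0.117).

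The other 3 genes of this role did not pass in either comparison with control. Npc2 binds cholesterol inside the lysosome and hands it to Npc1, Neu1 is a sialidase, and Gla encodes alpha-galactosidase A. Their mean levels were 79.5 ± 15.2, 38.3 ± 5.92 and 5.72 ± 1.88 CPM in ketogenic livers, 87.2 ± 8.77, 36.9 ± 3.21 and 6.71 ± 0.740 CPM in high-fat livers and 81.5 ± 9.96, 33.7 ± 3.01 and 5.50 ± 0.720 CPM in control livers.

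**Figure D2:**
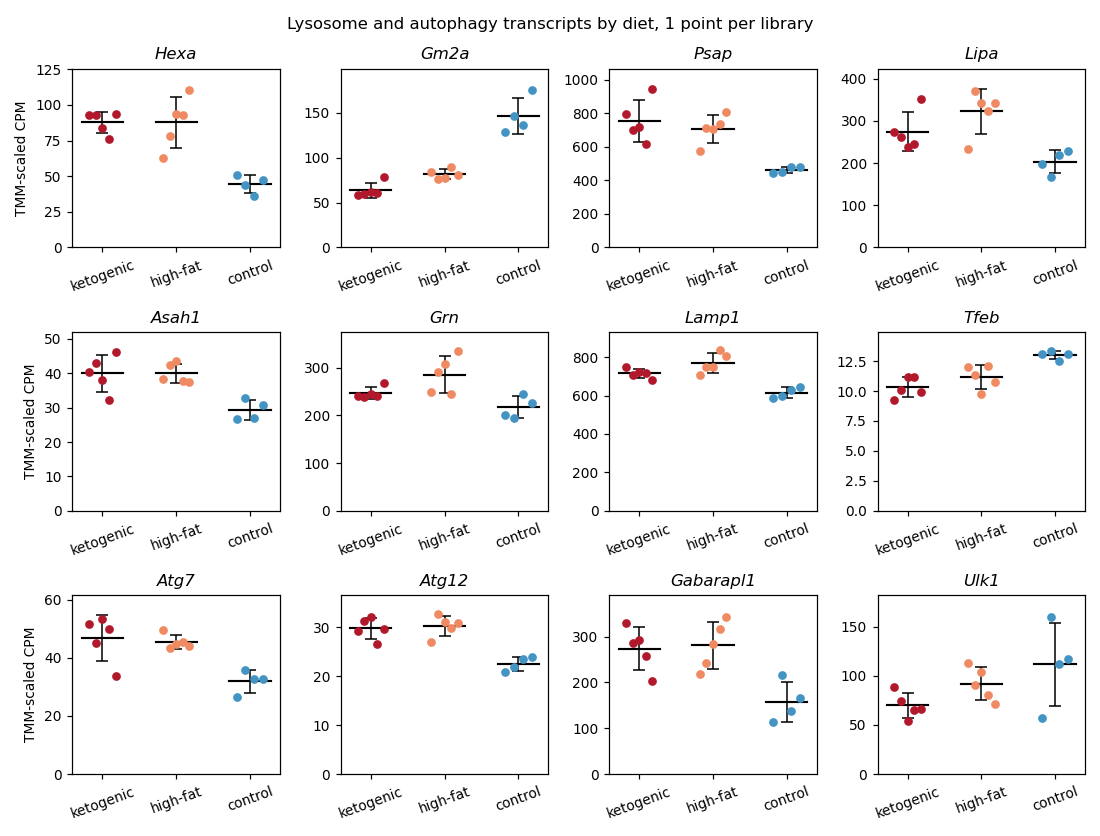
TMM-scaled CPM of 12 of the genes by diet, 1 point per library, with lines at the mean and bars of 1 SD (n = 5 ketogenic, 5 high-fat and 4 control libraries). Hexa, Psap and Atg12 show both fat-rich diets wholly above control and Gm2a shows them wholly below, while the Ulk1 control libraries spread from 56.7 to 160.2 CPM.

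None of the 5 lysosomal proteases passed in either comparison with control. Ctsd encodes cathepsin D, the main aspartic protease of lysosomes. Ctsd had 279, 277, 300.5, 252 and 393 CPM in ketogenic livers, 336, 311, 296, 323 and 379 CPM in high-fat livers and 287, 215, 233 and 265 CPM in control livers. The high-fat libraries were all above the control range and the ketogenic ones overlapped it. On the log2 scale Ctsd differed by 0.27 ± 0.14 (SE, adjusted p = 0.222) in ketogenic and 0.39 ± 0.14 (SE, adjusted p = 0.0734) in high-fat against control livers, and the high-fat value passed with DESeq2 (adjusted p = 0.0401). For the cysteine proteases Ctsb, Ctsl and Ctsz and the carboxypeptidase Ctsa, log2 fold changes against control ran from -0.21 (Ctsl) to 0.12 (Ctsz) in ketogenic and from -0.04 (Ctsl) to 0.33 (Ctsb) in high-fat livers. Ctsb had 661, 624, 569, 535 and 901 CPM in ketogenic, 667, 822, 810.3, 782 and 953 CPM in high-fat and 657, 579, 665 and 675 CPM in control livers. Replicate 5 was far above the other 4 ketogenic libraries.

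Of the 4 membrane proteins, Lamp1 alone passed a test, and weakly. Lamp1 and Lamp2 are heavily glycosylated proteins that line the inner face of the lysosomal membrane. Lamp1 had 749.5, 709, 721, 718 and 679 CPM in ketogenic livers, 709, 749, 749.95, 835 and 808 CPM in high-fat livers and 587, 599, 631 and 645 CPM in control livers. The ranges of both fat-rich diets lay above the control range. Lamp1 had a log2 fold change of 0.22 ± 0.10 (SE, adjusted p = 0.157) in ketogenic and 0.32 ± 0.10 (SE, adjusted p = 0.0405) in high-fat against control livers. The high-fat call was lost in 13 of 18 alternatives, among them each of those without a single control library or without high-fat replicate 2, 3, 4 or 5 (adjusted p from 0.0634 to 0.116). In ketogenic livers Lamp1 passed with DESeq2 (adjusted p = 0.0433) and with library totals (adjusted p = 0.0125). Lamp2, the cholesterol exporter Npc1 and the calcium channel Mcoln1 had log2 fold changes from -0.08 to 0.10 in ketogenic and from -0.16 to 0.10 in high-fat against control livers, and all 3 overlapped control.

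None of the 4 proton pump genes passed. Atp6v0d1, Atp6v1a, Atp6v1h and the accessory subunit Atp6ap1 had log2 fold changes from -0.15 (Atp6ap1) to 0.21 (Atp6v1a) in ketogenic and from -0.13 (Atp6v0d1) to 0.31 (Atp6v1a) in high-fat against control livers. Atp6v1a, a catalytic subunit of the pump, came closest, with 53.99, 70.4, 60.4, 59.2 and 56.95 CPM in high-fat and 44.1, 53.8, 45.8 and 50.1 CPM in control livers (adjusted p = 0.0733). Its high-fat libraries all lay above the control libraries.

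Of the 2 transcription factors, Tfeb passed as lower in ketogenic livers and Tfe3 did not pass. Tfeb is a master activator of lysosomal genes. Tfeb had 9.29, 10.1, 11.2, 11.2 and 9.92 CPM in ketogenic livers, 12.02, 11.4, 9.73, 12.1 and 10.7 CPM in high-fat livers and 13.1, 13.3, 12.5 and 13.1 CPM in control livers. Each control library was above every library of both fat-rich diets. For Tfeb the log2 fold change was -0.33 ± 0.10 (SE, adjusted p = 0.0441) in ketogenic and -0.22 ± 0.10 (SE, adjusted p = 0.18) in high-fat against control livers. The ketogenic call was lost in 13 of 18 alternatives, among them library totals (log2 fold change -0.17, adjusted p = 0.271) and those without any single control library or without ketogenic replicate 1, 2 or 5 (adjusted p from 0.0636 to 0.103). Tfe3 encodes a close relative of Tfeb. Tfe3 had 25.04, 28.8, 21.5, 23.1 and 25.1 CPM in ketogenic livers, 17.5, 21.9, 21.8, 21.1 and 22.2 CPM in high-fat livers and 21.3, 20.2, 21.1 and 22.4 CPM in control livers. The ketogenic libraries overlapped the control libraries at replicate 3, and high-fat replicate 1 was the lowest of all. On the log2 scale Tfe3 differed by 0.22 ± 0.10 (SE, adjusted p = 0.181) in ketogenic and -0.02 ± 0.10 (SE, adjusted p = 0.908) in high-fat against control livers, and the high-fat value was 0.03 without high-fat replicate 1 and 0.11 with library totals. These are transcript levels, and the activity of both factors, which depends on their entry into the nucleus, was not measured.

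None of the 4 initiation genes passed. Ulk1 encodes the kinase that starts autophagy. Ulk1 had 88.95, 74.6, 54.3, 64.96 and 65.7 CPM in ketogenic livers, 113, 90.6, 104, 79.9990 and 71.5 CPM in high-fat livers and 56.7, 160.2, 112 and 117 CPM in control livers. The ketogenic libraries were below 3 of the control libraries, while control replicate 2 was lower than 4 of the 5 ketogenic libraries. That control library also had a summed level of 1643.9 CPM for 10 pancreatic acinar markers, where the other control libraries had 25.4 to 175.4 CPM. Its neutrophil markers summed to 83.5 CPM, the highest of the control libraries. High-fat replicate 1 had 741.6 CPM for the acinar markers and the highest Ulk1 value of its diet. The part of these transcripts in the Ulk1 values was not tested. Ulk1 had a log2 fold change of -0.68 ± 0.23 (SE, adjusted p = 0.0674) in ketogenic and -0.28 ± 0.23 (SE, adjusted p = 0.461) in high-fat against control livers. Without control replicate 2 the ketogenic value was -0.90 (adjusted p = 0.00481), and with DESeq2 on all libraries it was -0.70 (adjusted p = 0.0281). The related kinase Ulk2, the lipid kinase partner Becn1 and the phosphoinositide-binding Wipi1 had log2 fold changes from -0.10 to 0.09 in ketogenic and from -0.33 to 0.01 in high-fat against control livers.

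In the conjugation machinery, Atg7 and Atg12 were higher in both fat-rich diets and Atg5 and Atg16l1 did not pass. Atg7 is the activating enzyme for both ubiquitin-like systems of autophagy. Atg7 had 51.8, 45.2, 53.3, 49.9 and 33.8 CPM in ketogenic livers, 49.6, 43.4, 44.9, 45.3 and 44.2 CPM in high-fat livers and 26.5, 35.8, 32.8 and 32.7 CPM in control livers. All high-fat libraries and 4 of the 5 ketogenic libraries were above the control range, and ketogenic replicate 5 fell inside it. For Atg7 the log2 fold change was 0.55 ± 0.13 (SE, adjusted p = 0.0106) in ketogenic and 0.51 ± 0.13 (SE, adjusted p = 0.0176) in high-fat against control livers, and 0.63 in ketogenic livers without replicate 5. Atg12 is the ubiquitin-like protein that is joined to Atg5. Atg12 had 29.3, 31.4, 32.2, 26.6 and 29.7 CPM in ketogenic livers, 27.1, 32.7, 31.1, 29.96 and 30.9 CPM in high-fat livers and 20.9, 21.99, 23.5 and 23.9 CPM in control livers. The control libraries lay below all the others. On the log2 scale Atg12 differed by 0.40 ± 0.09 (SE, adjusted p = 0.00865) in ketogenic and 0.43 ± 0.09 (SE, adjusted p = 0.00663) in high-fat against control livers. Both genes passed in each of the 18 alternatives. Their partner Atg5 averaged 46.5 ± 6.03 CPM in ketogenic, 48.9 ± 3.69 CPM in high-fat and 42.4 ± 3.31 CPM in control livers, and Atg16l1, which brings the conjugate to the membrane, averaged 35.1 ± 4.23 CPM in ketogenic, 31.95 ± 4.09 CPM in high-fat and 35.2 ± 4.30 CPM in control livers.

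Among the 5 Atg8 genes, whose proteins are attached to the autophagosome membrane and bind cargo receptors, Gabarapl1 alone passed. Gabarapl1 had 329, 287, 292, 257 and 202 CPM in ketogenic livers, 218, 242, 284, 316 and 344 CPM in high-fat livers and 115, 215, 137 and 166 CPM in control livers. Every high-fat library was above the control range, and ketogenic replicate 5 was under the highest control library. Gabarapl1 had a log2 fold change of 0.79 ± 0.19 (SE, adjusted p = 0.0136) in ketogenic and 0.83 ± 0.19 (SE, adjusted p = 0.0116) in high-fat against control livers. Without control replicate 4 the ketogenic adjusted p was 0.0555. Map1lc3b encodes LC3B, the Atg8 protein most often used as an autophagosome marker. Map1lc3b had 105, 116, 135, 110.02 and 88.6 CPM in ketogenic livers, 109.8, 99.4, 113, 114 and 126 CPM in high-fat livers and 84.1, 95.2, 89.9 and 98.5 CPM in control livers. The high-fat libraries sat just above the control range, and ketogenic replicate 5 overlapped it. For Map1lc3b the log2 fold change was 0.27 ± 0.12 (SE, adjusted p = 0.144) in ketogenic and 0.29 ± 0.12 (SE, adjusted p = 0.114) in high-fat against control livers, and both values passed with library totals (adjusted p = 0.00581 in ketogenic and 0.00806 in high-fat livers). Map1lc3a, Gabarap and Gabarapl2 did not pass, with log2 fold changes from -0.08 to 0.24 in ketogenic and from 0.05 to 0.34 in high-fat against control livers.

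Per kilobase of exon, Gabarapl1 averaged 136 CPM in ketogenic, 139 CPM in high-fat and 78.6 CPM in control livers. Gabarap averaged 102 CPM per kilobase in ketogenic, 111 in high-fat and 107 in control livers. The library ranges of these 2 genes overlapped in every diet, from 56.9 to 107 for Gabarapl1 and from 97.8 to 124 for Gabarap in control livers. Map1lc3a followed at 32.3 CPM per kilobase in ketogenic livers, and Gabarapl2 (18.7) and Map1lc3b (14.7) were lowest there. Not divided by length, Map1lc3b (110.7 CPM) was above Gabarapl2 (43.5 CPM) and Map1lc3a (38.1 CPM) in ketogenic livers. Over all 38 genes the mean level in ketogenic livers ran from 1.75 CPM per kilobase for Gla to 275 for Psap, with Lamp1 next at 267. Exon lengths came from an annotation of an earlier build and count every base in any annotated exon of a gene. They were 7517 bases for Map1lc3b and 1181 bases for Map1lc3a, so the order of these genes depends on the division.

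Sqstm1, the cargo receptor also called p62, did not pass in either comparison with control. Sqstm1 had 439, 384, 404, 368 and 353 CPM in ketogenic livers, 313, 385, 371, 413 and 568 CPM in high-fat livers and 314, 304, 341 and 349.5 CPM in control livers. The ketogenic libraries were all above the control libraries by a small margin, and high-fat libraries ran from inside the control range to well above it. On the log2 scale Sqstm1 differed by 0.25 ± 0.15 (SE, adjusted p = 0.279) in ketogenic and 0.33 ± 0.15 (SE, adjusted p = 0.164) in high-fat against control livers.

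Ketogenic livers were also set against high-fat livers, the comparison of the 2 fat-rich diets. None of the 38 members passed (edgeR's quasi-likelihood test and DESeq2 both gave 0), where 0.0615% of all genes tested passed with edgeR (0.00684% higher, 0.0547% lower) and 1.03% with DESeq2. At an unadjusted p below 0.05 there were 2 members (5.26%), where 8.70% of all genes were below it. These were Gm2a with a log2 fold change of -0.36 ± 0.11 (SE, adjusted p = 0.265) and Tfe3 with 0.24 ± 0.10 (SE, adjusted p = 0.456). No member separated the libraries of the 2 diets, and 1.76% of all genes did. The median log2 fold change of the members was -0.07, beside 0.02 over all genes. Gm2a had 4 ketogenic libraries between 58.4 and 61.5 CPM and replicate 5 at 79.0 CPM, inside the high-fat range of 76.8 to 90.1 CPM. Without ketogenic replicate 5 the log2 fold change of Gm2a was -0.45 (adjusted p = 0.0284). Without both ketogenic replicate 5 and high-fat replicate 1, an analysis chosen after seeing the data, Gm2a (-0.44, adjusted p = 0.0302), Ctsb (-0.50, adjusted p = 0.0247) and Lipa (-0.44, adjusted p = 0.04) were lower in ketogenic livers, where 2.49% of all genes were.

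Macrophages are rich in lysosomes, and their transcripts varied between libraries. The summed level of 7 general macrophage markers was 304.1, 307.9, 262.1, 249.95 and 905.9 CPM in ketogenic, 397.1, 556.3, 550.0, 433.8 and 517.3 CPM in high-fat and 364.4, 264.4, 344.2 and 346.6 CPM in control livers. Ketogenic replicate 5 was far above the other ketogenic libraries, and the high-fat libraries lay above the control range. None of these 7 passed in either comparison with control (edgeR and DESeq2, with 1 in ketogenic and 2 in high-fat livers at an unadjusted p below 0.05), but without both ketogenic replicate 5 and high-fat replicate 1 all but Mpeg1 were higher in high-fat than in control livers, as were 13 of the 38 members. In that setting, chosen after seeing the data, 1870 of 14369 genes tested were higher and 1369 lower in high-fat against control livers. Together these were 22.5% of all genes, where 12.0% passed with all libraries (6.95% higher, 5.01% lower). Of the 8 markers for macrophages that are monocyte-derived or lipid-associated, 3 were higher in ketogenic livers (Trem2, Gpnmb and Cx3cr1) and 1 in high-fat livers (Gpnmb), and their sum ran from 110.8 to 755.8 CPM in ketogenic, 211.2 to 333.3 CPM in high-fat and 95.8 to 165.9 CPM in control livers. The 6 Kupffer cell markers summed to 175.7 to 525.1 CPM in ketogenic, 229.96 to 400.2 CPM in high-fat and 218.3 to 345.9 CPM in control livers, with Timd4 lower in ketogenic livers. Of these calls only that of Gpnmb in ketogenic livers passed without each single library. The ketogenic call of Trem2 did not hold when control replicate 3, 4 or 5 was left out (adjusted p from 0.0725 to 0.0802), that of Cx3cr1 without any single control library or ketogenic replicate 1 or 5 (adjusted p from 0.0616 to 0.0953) and that of Timd4 without any single library other than ketogenic replicate 5 (adjusted p from 0.0588 to 0.0953), and the high-fat call of Gpnmb did not hold when control replicate 3, 4 or 5 was dropped (adjusted p between 0.0503 and 0.0552). Without ketogenic replicate 5 the log2 fold change of Trem2 in ketogenic livers was 1.59, against 2.66 with it, and that of Gpnmb was 3.84, against 4.95. None of these markers was at 0 over a diet. Ketogenic replicate 5, the library with the most macrophage transcripts, had the highest ketogenic value of 10 members (Ctsb, Ctsd, Hexa, Gla, Lipa, Asah1, Gm2a, Psap, Npc2 and Grn) and the lowest of 15, among them Lamp1, Lamp2, Ctsz, Neu1, Atg7, Gabarapl1 and Sqstm1. Of the members this was 26.3% highest and 39.5% lowest, where it was highest for 32.8% and lowest for 26.8% of all genes tested. The part of macrophages in the members' values was not tested. Of the other marker lists, 3 of 7 stellate cell and fibroblast markers were higher in ketogenic livers (Col1a1, Col3a1 and Pdgfrb) and 3 in high-fat livers (Dcn, Pdgfrb and Rgs5). Kdr was lower among 5 sinusoidal endothelial markers and Cps1 among 8 hepatocyte markers in each fat-rich diet, and no neutrophil, T and NK cell, B cell, cholangiocyte, acinar or adipocyte marker passed with edgeR in either comparison with control. Over those lists 6 markers in ketogenic and 3 in high-fat livers had an unadjusted p below 0.05. DESeq2 called 2 acinar markers lower in ketogenic and 1 neutrophil marker lower in high-fat livers. The neutrophil markers summed to 83.5 CPM in control replicate 2 and to 2.85 to 4.43 CPM in the other control libraries. High-fat livers had 4.29 to 12.97 CPM. The acinar markers summed to 1643.9 CPM in control replicate 2, 25.4 to 175.4 CPM in the other control libraries and 6.88 to 331.5 CPM in ketogenic livers. In high-fat livers the acinar sums ran from 106.8 to 741.6 CPM, with the highest in replicate 1. The summed hepatocyte markers, which were below the control range in every library of both fat-rich diets, were lowest in ketogenic replicate 5. Alb alone averaged from 76405 to 105790 CPM by diet, so the sum mostly follows that gene. All 8 hepatocyte markers had negative log2 fold changes in each fat-rich diet against control. The part of this in the members' values was not tested. Without ketogenic replicate 5, Hexa (0.94), Psap (0.59) and Asah1 (0.37) were higher and Gm2a (-1.31) lower in ketogenic than in control livers on the log2 scale. The ketogenic libraries kept there were also below the control range for hepatocyte markers, and the part of cell shares in these values was not tested.

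**Figure D3:**
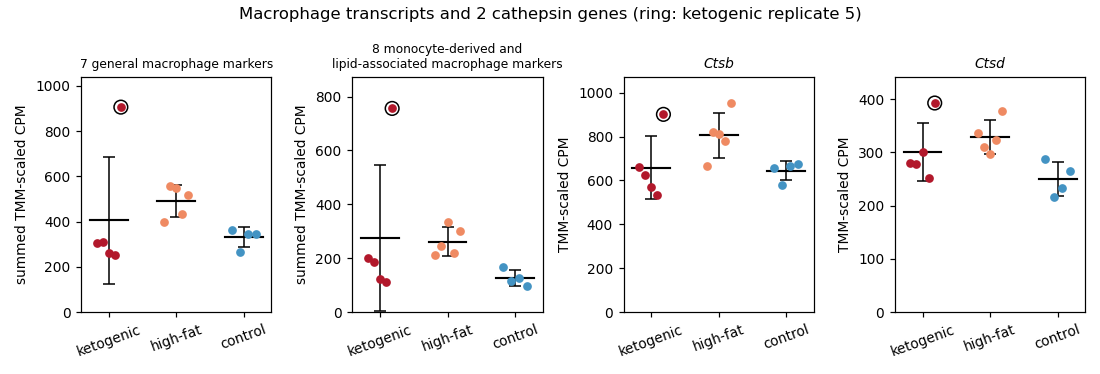
Summed TMM-scaled CPM of the 7 general macrophage markers and of the 8 monocyte-derived and lipid-associated macrophage markers, and TMM-scaled CPM of Ctsb and Ctsd, 1 point per library with mean and SD. The ringed point is ketogenic replicate 5, which is the highest ketogenic library in all 4 panels.

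Further genes of the same pathways were read in 6 lists, whose counts stand beside 12.1% of all genes called in ketogenic against control livers (7.47% higher, 4.60% lower) and 12.0% in high-fat against control livers (6.95% higher, 5.01% lower). Of 41 other lysosomal hydrolases, 7 were higher and 4 lower in ketogenic, and 7 higher and 4 lower in high-fat against control livers (26.8% called in each), with a median log2 fold change of 0.07 in ketogenic and 0.06 in high-fat livers. The protease Ctso and the depalmitoylating enzyme Ppt1 were higher in both, with log2 fold changes of 0.46 ± 0.10 and 0.60 ± 0.13 (SE) in ketogenic and 0.48 ± 0.10 and 0.61 ± 0.13 in high-fat livers. The lower hydrolases included Glb1, the lysosomal beta-galactosidase (-0.61 ± 0.13 (SE, adjusted p = 0.00703) in ketogenic and -0.49 ± 0.13 (SE, adjusted p = 0.0253) in high-fat livers), Galc, which cleaves galactosylceramide (-0.59 ± 0.16 (SE, adjusted p = 0.0224) in ketogenic and -0.70 ± 0.16 (SE, adjusted p = 0.0098) in high-fat livers), and Hgsnat, which acetylates heparan sulfate (-0.49 ± 0.11 (SE, adjusted p = 0.00958) in ketogenic and -0.38 ± 0.11 (SE, adjusted p = 0.0371) in high-fat livers). With library totals neither Glb1 nor Galc passed in either comparison (adjusted p from 0.0844 to 0.208). In high-fat livers Glb1 was also lost without control replicate 3, 4 or 5 or high-fat replicate 2 or 4 (adjusted p from 0.0519 to 0.0827), and Hgsnat without control replicate 3, 4 or 5 or high-fat replicate 2, 3, 4 or 5 (adjusted p from 0.063 to 0.129). In ketogenic livers Galc was lost when control replicate 4 or 5 was dropped (adjusted p from 0.0672 to 0.0743).

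Of 27 other membrane and sorting proteins, 2 were higher and 2 lower in ketogenic, and 2 higher and 1 lower in high-fat against control livers (14.8% called in ketogenic and 11.1% in high-fat livers), with a median log2 fold change of 0.13 in ketogenic and 0.08 in high-fat livers. Without high-fat replicate 1 the high-fat counts were 3 higher and 2 lower. Laptm4b, a lysosomal transmembrane protein, rose in both, with log2 fold changes of 0.72 ± 0.14 (SE, adjusted p = 0.00268) in ketogenic and 0.74 ± 0.14 (SE, adjusted p = 0.0028) in high-fat livers, and the sialomucin Cd164 fell by 0.46 in ketogenic (adjusted p = 0.00759) and by 0.42 in high-fat livers (adjusted p = 0.0146). Cd164 did not pass with library totals (adjusted p = 0.1 in ketogenic and 0.111 in high-fat livers), nor in high-fat livers without control replicate 5 (adjusted p = 0.0503). The other calls were the potassium and proton channel Tmem175 (0.47 ± 0.13 (SE, adjusted p = 0.0322)) and the glucocerebrosidase receptor Scarb2 (-0.45 ± 0.13 (SE, adjusted p = 0.0274)) in ketogenic livers, and the tetraspanin Cd63 (1.56 ± 0.46 (SE, adjusted p = 0.0439)) in high-fat livers. Each of these 3 was lost when control replicate 3, 4 or 5 was dropped (adjusted p from 0.0611 to 0.124), Tmem175 also without control replicate 2 or ketogenic replicate 1 or 4, Scarb2 also without ketogenic replicate 2, and Cd63 also without control replicate 2 or high-fat replicate 2, 3, 4 or 5 (adjusted p from 0.0546 to 0.0986).

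Of 15 other pump subunits, 2 were higher and 1 lower in ketogenic, and 1 higher and 1 lower in high-fat against control livers (20% called in ketogenic and 13.3% in high-fat livers), with a median log2 fold change of 0.04 in ketogenic and 0.08 in high-fat livers. Atp6v0d2, an isoform abundant in osteoclasts and macrophages, had 5.22, 7.05, 3.83, 1.79 and 14.3 CPM in ketogenic, 6.19, 3.73, 4.37, 4.25 and 7.41 CPM in high-fat and 1.64, 1.93, 1.64 and 1.88 CPM in control livers. Its highest value was in ketogenic replicate 5, the library with the most macrophage transcripts. That library also had the highest ketogenic sums of stellate cell and cholangiocyte markers, and whether any of those cells account for the value was not tested. Its log2 fold change was 1.86 ± 0.45 (SE, adjusted p = 0.0144) in ketogenic and 1.54 ± 0.45 (SE, adjusted p = 0.0376) in high-fat against control livers, and the high-fat call was lost without any single control library or without high-fat replicate 1, 3, 4 or 5 (adjusted p from 0.0536 to 0.104). Atp6v1g1 was lower in both, with log2 fold changes of -0.81 ± 0.14 (SE, adjusted p = 0.00135) in ketogenic and -0.49 ± 0.14 (SE, adjusted p = 0.0332) in high-fat livers. Its high-fat call was lost without control replicate 2, 4 or 5 or high-fat replicate 2, 3 or 4 (adjusted p from 0.0667 to 0.0942). Atp6v1b2 was higher in ketogenic livers (0.49 ± 0.15 (SE, adjusted p = 0.0446)) and was lost without control replicate 3, 4 or 5 or ketogenic replicate 1, 2 or 5 (adjusted p from 0.0683 to 0.142).

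Of 31 other core autophagy genes, 1 was higher and 0 lower in ketogenic and 2 were higher and 0 lower in high-fat against control livers (3.23% called in ketogenic and 6.45% in high-fat livers), with a median log2 fold change of -0.01 in ketogenic and -0.03 in high-fat livers. Without high-fat replicate 1 the high-fat counts were 4 higher and 4 lower. Without ketogenic replicate 5 the ketogenic counts were 0 higher and 1 lower. At an unadjusted p below 0.05 there were 6 genes in ketogenic (4 lower) and 12 in high-fat livers (5 lower). Over all genes 28.0% in ketogenic and 27.4% in high-fat livers were below it. DESeq2 called 2 genes (1 lower) in ketogenic and 6 (2 lower) in high-fat livers, where it called 14.6% and 15.2% of all genes. Atg4a, a protease that trims Atg8 proteins, passed in both (0.38 ± 0.12 (SE, adjusted p = 0.0445) in ketogenic and 0.50 ± 0.12 (SE, adjusted p = 0.0128) in high-fat livers), and Pik3c3, the lipid kinase that works with Becn1, passed in high-fat livers (0.43 ± 0.12 (SE, adjusted p = 0.0319)). Leaving out control replicate 2, 3, 4 or 5 alone ended the ketogenic call of Atg4a and the high-fat call of Pik3c3 (adjusted p from 0.0517 to 0.132), as did leaving out ketogenic replicate 1, 3, 4 or 5 for Atg4a (adjusted p from 0.0592 to 0.0898) and high-fat replicate 3, 4 or 5 for Pik3c3 (adjusted p from 0.0598 to 0.0774). Among 15 other receptors for selective autophagy, 2 were higher in ketogenic and 1 in high-fat livers and 0 were lower in either (13.3% called in ketogenic and 6.67% in high-fat livers), with a median log2 fold change of 0.00 in ketogenic and 0.16 in high-fat livers. Calcoco1, a receptor for parts of the endoplasmic reticulum, had 32.4, 26.4, 23.3, 25.95 and 37.7 CPM in ketogenic, 21.1, 29.98, 38.2, 40.04 and 37.3 CPM in high-fat and 12.9, 20.2, 15.5 and 18.04 CPM in control livers. The libraries of both fat-rich diets were above the control range, and its log2 fold change was 0.81 ± 0.19 (SE, adjusted p = 0.013) in ketogenic and 1.0003 ± 0.20 (SE, adjusted p = 0.00395) in high-fat livers. Optn, a receptor for mitochondria and bacteria, passed in ketogenic livers (0.40 ± 0.12 (SE, adjusted p = 0.0402)) but not without any single control library or without ketogenic replicate 1, 2 or 4 (adjusted p from 0.052 to 0.126).

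Of 31 nutrient-sensing and transcriptional regulators, 30 were tested, and 2 were higher and 1 lower in ketogenic against 0 higher and 1 lower in high-fat livers, each relative to control (10% called in ketogenic and 3.33% in high-fat livers), with a median log2 fold change of 0.05 in ketogenic and 0.06 in high-fat livers. Zkscan3, a zinc finger protein described in human cells as a repressor of autophagy genes, had 80.1, 73.3, 55.98, 80.8 and 67.9 CPM in ketogenic, 46.8, 53.1, 68.6, 56.2 and 39.8 CPM in high-fat and 42.6, 40.5, 38.2 and 36.1 CPM in control livers. The ketogenic libraries were all above the control libraries, and high-fat replicate 5 overlapped them. Its log2 fold change was 0.86 ± 0.15 (SE, adjusted p = 0.00119) in ketogenic and 0.43 ± 0.15 (SE, adjusted p = 0.0681) in high-fat against control livers, and 0.44 ± 0.14 (SE, adjusted p = 0.283) between ketogenic and high-fat livers. Without high-fat replicate 5 the high-fat value was 0.51 (adjusted p = 0.0319). Prkaa2, a catalytic subunit of the energy sensor AMPK, was lower in both, with log2 fold changes of -0.55 ± 0.14 (SE, adjusted p = 0.0167) in ketogenic and -0.48 ± 0.14 (SE, adjusted p = 0.0346) in high-fat livers. With library totals it passed in neither (adjusted p = 0.154 in ketogenic and 0.194 in high-fat livers), and when control replicate 3 or 4 was dropped it was lost in both as well (adjusted p from 0.0507 to 0.117). In high-fat livers the call was also lost without control replicate 5 or high-fat replicate 3, 4 or 5 (adjusted p from 0.0578 to 0.0786). Mlst8, a subunit of the mTOR complexes, was higher in ketogenic livers (0.45 ± 0.13 (SE, adjusted p = 0.0288)) and was lost without control replicate 3, 4 or 5 or ketogenic replicate 2 or 4 (adjusted p from 0.0517 to 0.0983). In ketogenic against high-fat livers 0 genes of the 6 lists passed with edgeR, 12 had an unadjusted p below 0.05 and DESeq2 called 1, and without ketogenic replicate 5 there were 3 lower hydrolases, where 1.25% of all genes were lower.

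**Figure D4:**
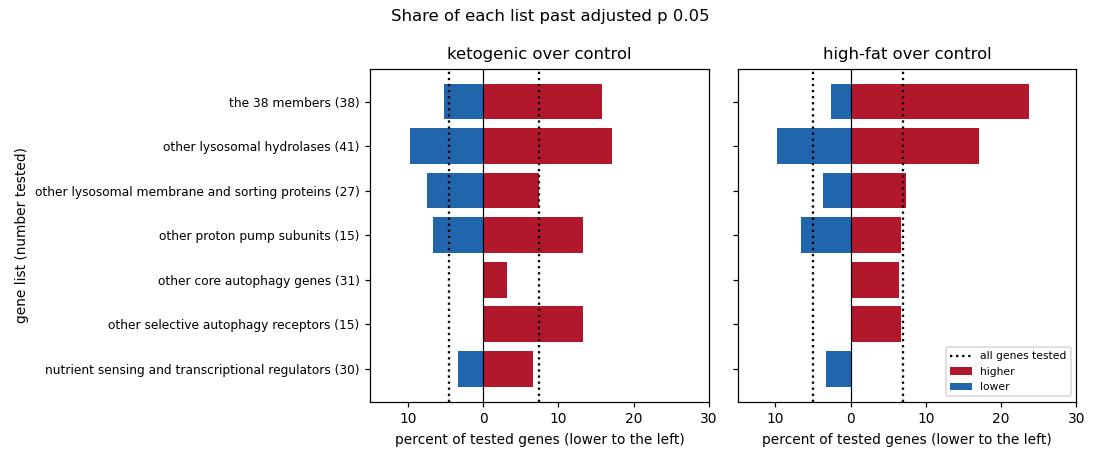
Percent of the tested genes in each list that passed an adjusted p of 0.05, with lower genes drawn to the left and higher genes to the right, in ketogenic over control and high-fat over control livers; dotted lines are the shares over all 14627 genes tested. Lysosomal hydrolases outside the 38 had 7 of 41 genes higher and 4 of 41 lower in either diet, and the core autophagy list had 0 lower.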

How the data were processed

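RNA of mouse liver was measured as poly(A)-selected, stranded libraries, per the labels' protocols. The table deposited by the authors gives raw counts, 1 row per Ensembl gene. Tools listed without a role in the submitters' processing notes are featureCounts 1.6, STAR 2.7.9a, DESeq2 1.36.0 and cutadapt 1.16, with the build GRCm39. Neither the strand setting nor the treatment of multi-mapping reads is stated there, so values of overlapping or near-identical genes are uncertain. Symbols came from an annotation of an earlier build and matched 98.17% of the genes tested.

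Control replicate 1 was left out, as the submitters state. A single edgeR 4.0.16 model in R 4.3.3 held all 3 diets (robust glmQLFit, two-sided glmQLFTest), after filterByExpr with a minimum count of 10 and a minimum total of 15 and after TMM scaling with factors from 0.886 to 1.215. Benjamini-Hochberg adjustment ran over 14627 genes, with a threshold of 0.05. The SE of a log2 fold change is its size divided by the square root of the F statistic. The code was tested on simulated data. Totals of 16329425 to 25349148 counts set the counting precision.

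The members and all lists were chosen with earlier results of these data known. Per-library values are given for members past the threshold in any comparison and for Tfeb, Tfe3, Sqstm1, Ulk1, Map1lc3b, Lamp1, Ctsd and Lipa; those of Ctsb, Atp6v1a, Atp6v0d2, Calcoco1 and Zkscan3 were added after their values were seen. Of each pathway list up to 3 called genes per direction and comparison with the smallest adjusted p are named, except 1 that is not reported here. The marker lists were hepatocyte, Kupffer cell, monocyte-derived and lipid-associated macrophage, general macrophage, neutrophil, T and NK cell, B cell, stellate cell and fibroblast, sinusoidal endothelial, cholangiocyte, pancreatic acinar and adipocyte markers. Alternatives were DESeq2 1.42.0, its size factors in edgeR, library totals, no filter or a stricter one, the 2 diets alone, the replicate number or the library number as a factor, and leaving out each library. Promoters came from RefSeq's table on GRCm38.p6 and exon lengths from an annotation of an earlier build.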

Additional observations from a re-analysis of the deposited data

Results flagged for a closer look

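Each of the 38 genes was checked in each diet for a library far from the others of its diet by Dixon's criterion, which chance alone meets in about 1 in 20 groups, and 6 of 114 groups met it. In ketogenic livers replicate 5 stood high for Gm2a, at 79.0 CPM where the other libraries ran from 58.4 to 61.5 CPM, and for Grn, at 267.8 CPM where the others ran from 238.7 to 246.1 CPM. This library had the most macrophage transcripts and the highest ketogenic sums of stellate cell, cholangiocyte, T and NK cell and B cell markers. The part of these transcripts in the values of Gm2a and Grn was not tested. In high-fat livers Npc2 was high in replicate 5 (102.8 CPM, others 82.0 to 84.3 CPM), Neu1 was low in replicate 2 (31.3 CPM, others 37.2 to 39.1 CPM), and Tfe3 was low in replicate 1 (17.5 CPM, others 21.1 to 22.2 CPM). In control livers Ctsl was low in replicate 3 (426.5 CPM, others 465.7 to 468.4 CPM).

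Control replicate 1, which the submitters excluded as contaminated and which enters no comparison, was also set beside the other control libraries. It lay above all 4 of them for 9 members and below all 4 for 11 members, that is 23.7% above and 28.9% below, beside 2925 genes above and 2865 below among all 14627 tested. Of those above, Npc1 had 170.9 CPM in the excluded library and 73.9 to 145.1 CPM in the control libraries used. Lipa had 258.7 CPM against 166.7 to 228.8 CPM, and Gabarapl1 had 245.7 CPM against 114.4 to 215.1 CPM. Of those below, Psap had 418.7 CPM against 443.2 to 480.7 CPM, and Grn had 174.2 CPM against 195.0 to 244.8 CPM. All these values were scaled together with the excluded library.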

How the results depend on the processing

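In the comparisons with control, Hexa, Gm2a, Psap, Atg7 and Atg12 passed under all 18 alternatives of each, as did Lipa and Gabarapl1 in high-fat livers. With library totals 12 members were higher and 1 lower in ketogenic against control livers. The number lower there was also 1 without a filter on low counts, with the 2 diets alone, with the replicate block and with the library number as a factor, because Tfeb was lost; it ranged from 1 to 2 when libraries were left out. All genes called ranged from 1056 to 2201 in ketogenic and from 934 to 3239 in high-fat against control livers when libraries were left out, with 1056 and 934 both when control replicate 4 was dropped, and 3239 when high-fat replicate 1 and ketogenic replicate 5 were dropped together, a setting chosen after seeing the data.

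In ketogenic against high-fat livers, all genes called were 168 with DESeq2, 15 with library totals, 26 without a filter, 1 with the 2 diets alone, 15 with the replicate block and from 1 to 636 when libraries were left out (315 without ketogenic replicate 5 alone, and 1 when ketogenic replicate 1 or 4 or high-fat replicate 2 was dropped). Members lower ranged from 0 to 3. Directions turned only for members that passed in neither setting. Against control these were most often Atp6v0d1 (9 of 18 alternatives) and Atg16l1 (7) in ketogenic livers, and Becn1 (8) and Atp6ap1 (7) in high-fat livers. Tfe3 in high-fat against control livers was 0.11 with library totals, 0.00 with the replicate block and from -0.05 to 0.03 when libraries were left out. In ketogenic against high-fat livers, Hexa was 0.00 with DESeq2, with its size factors, without a filter and with the 2 diets alone, Asah1 was 0.00 with DESeq2 and with the replicate block, and with library totals Atg12 was 0.02 and Map1lc3b 0.01. Leaving out libraries moved Hexa from -0.12 to 0.10, Asah1 from -0.07 to 0.07, Atg12 from -0.06 to 0.01, Gabarapl1 from -0.12 to 0.05, Map1lc3b from -0.10 to 0.05, Sqstm1 from -0.16 to 0.07, Atg7 from -0.01 to 0.17 and Psap from -0.07 to 0.15. The cause of these changes was not tested.

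The labels do not say what a replicate number shares. Deviations of libraries with the same number correlated at -0.04 to 0.42 in ketogenic and control livers (4 pairs). Pairs with different numbers ran from -0.34 to 0.22 there. In high-fat and control livers same-number pairs ran from -0.13 to 0.09 (4 pairs) and other pairs from -0.27 to 0.34. In ketogenic and high-fat livers same-number pairs ran from -0.40 to 0.21 (5 pairs) and other pairs from -0.49 to 0.44. So few pairs cannot decide whether the numbers pair the libraries. The block gave 1297 calls over all genes in ketogenic and 1380 in high-fat against control livers, against 1766 and 1749 without it, and adjusted p-values of 0.115 for Tfeb in ketogenic, 0.104 for Lamp1 in high-fat and 0.0608 for Grn in high-fat livers. Genes with low counts such as Gla and Tfeb are measured with more counting error than the others.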
